A study of Mus musculus with 7 samples.

Results

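The neural lineage transcription factors described here are 8 genes, Sox1, Pax6, Pax3, Neurog1, Neurog2, Neurod1, Olig2 and Zic1. They were found on mouse exon arrays as the probe sets whose platform gene symbol is exactly one of these names. These are 110 probe sets of the 311384 that carry a single gene symbol, and 8 genes of 22083. RNA came from 7 samples of the J-1 line of mouse embryonic stem cells, all infected with lentiviruses that carried short hairpin RNAs and all grown in full medium, with 1 array per sample. In 2 samples the hairpin was Mettl3 shRNA #1 (hairpin 1), in 2 it was Mettl3 shRNA #2 (hairpin 2), and in 3 it was a control hairpin against luciferase, a firefly enzyme whose gene is foreign to mice. Mettl3 encodes the catalytic subunit of the enzyme that places N6-methyladenosine on RNA, and the comparison asks how gene expression differs when this subunit is lowered. The labels do not say whether the samples of a group came from separate infections or cultures, and p-values therefore cover the spread among these 7 samples alone, possibly a technical one.

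These factors switch on in sequence as embryonic cells take a neural fate. Sox1, a factor of the SoxB1 group, marks the earliest neuroectoderm, and Pax6, which has a paired domain and a homeodomain, follows in the progenitors of the forebrain, eye and spinal cord. Pax3 and Zic1 act in the dorsal neural tube and the neural crest, Olig2 in progenitors of motor neurons and oligodendrocytes, and Neurog1, Neurog2 and Neurod1 are basic helix-loop-helix (bHLH) factors that drive neurons to form. Undifferentiated stem cells are known to keep most of them at low levels, poised at Polycomb-bound promoters.

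The promoters of the 3 members that the results turn on (Sox1, Pax6 and Neurog1) are shown because their letters can be set beside the changes of these genes. Each window holds 300 bases around a start site in RefSeq (assembly GRCm38.p6), 5′ to 3′ on the strand of the gene. Capitals mark the octamer ATGCAAAT, the motif of POU factors, or the cyclic AMP response element TGACGTCA, searched on both strands, which do not overlap here. Pax6 has 2 windows, one for each of 2 start sites.
Sox1 (chr8:12395269-12395568, + strand): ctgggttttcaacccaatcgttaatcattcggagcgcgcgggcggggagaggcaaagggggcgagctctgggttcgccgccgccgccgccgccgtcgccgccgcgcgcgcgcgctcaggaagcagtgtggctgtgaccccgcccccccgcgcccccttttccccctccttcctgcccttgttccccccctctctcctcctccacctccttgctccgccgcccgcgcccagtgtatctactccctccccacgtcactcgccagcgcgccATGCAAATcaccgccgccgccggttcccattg
Pax6, window 1 (chr2:105668646-105668945, + strand): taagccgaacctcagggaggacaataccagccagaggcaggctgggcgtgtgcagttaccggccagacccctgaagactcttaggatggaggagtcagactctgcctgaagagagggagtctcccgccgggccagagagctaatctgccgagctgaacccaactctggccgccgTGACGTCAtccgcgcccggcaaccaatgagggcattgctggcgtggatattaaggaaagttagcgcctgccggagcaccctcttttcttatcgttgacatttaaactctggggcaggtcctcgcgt
Pax6, window 2 (chr2:105682213-105682512, + strand): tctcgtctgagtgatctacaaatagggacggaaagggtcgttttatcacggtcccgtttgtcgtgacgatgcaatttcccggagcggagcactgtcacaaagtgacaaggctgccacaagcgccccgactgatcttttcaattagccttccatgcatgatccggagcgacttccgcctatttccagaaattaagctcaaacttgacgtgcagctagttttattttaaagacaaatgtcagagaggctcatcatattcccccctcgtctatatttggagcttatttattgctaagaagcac
Neurog1 (chr13:56252131-56252430, - strand): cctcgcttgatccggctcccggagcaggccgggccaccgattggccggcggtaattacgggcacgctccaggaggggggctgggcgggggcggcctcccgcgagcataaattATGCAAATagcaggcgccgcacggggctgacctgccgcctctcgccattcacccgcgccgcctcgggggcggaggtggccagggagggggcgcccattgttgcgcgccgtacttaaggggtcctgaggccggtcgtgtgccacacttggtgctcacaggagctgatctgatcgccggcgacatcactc

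The octamer was present in 2 of the 8 windows matched to members, those of Sox1 and Neurog1, against 1.74% of all 32851 windows searched. Its first base lies at position 19 in Sox1 and at position -138 in Neurog1, counted from the start site. The cyclic AMP response element was found in window 1 of Pax6 alone among the 8, at position -76, and in 1.79% of all windows. The bHLH site CANNTG was in 4 of the 8 windows (Neurod1, Pax6 window 2, Zic1 and Neurog1) against 72.3% of all. Pax3 has no entry in the table of windows. These matches describe letters in a window, and the motifs were chosen after the windows had been read.

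The values are log2 expression values of single probe sets, and a gene value is the median of its kept probe sets on an array. Probe sets with a 7-array mean above 6.02 were kept, a cutoff equal to the median over the 1201338 on the array, and a gene needed at least 3 of them. All 8 members passed, on 72 of their 110 probe sets: 17 of 18 for Sox1, 28 of 46 for Pax6, 4 of 15 for Pax3, 4 of 4 for Neurog1, 3 of 5 for Neurog2, 4 of 4 for Neurod1, 8 of 8 for Olig2 and 4 of 10 for Zic1. Because probe sets bind with different strength, levels are compared between arrays and not between genes. Differences are knockdown minus luciferase on the log2 scale and were tested with limma over all 16353 genes tested, with Benjamini-Hochberg adjustment and a threshold of 0.05.

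The arrays matched their labels. Mettl3 was at 8.97 and 8.67 with hairpin 1 and at 8.71 and 8.66 with hairpin 2, against 10.38, 10.46 and 10.14 with luciferase, a difference of -1.57 ± 0.105 (SE; limma adjusted p = 0.000116) for the mean of both hairpins. Marker means here used all probe sets of a gene, those not kept included, while tests and differences used kept ones alone. The 10 stem cell markers (Pou5f1, Nanog, Sox2 and others) averaged 11.99 to 12.08 with hairpin 1. They averaged 12.06 to 12.10 with hairpin 2 and 12.02 to 12.16 with luciferase, and none of the 10 passed the test. The mean of 10 fibroblast markers, written as a check for feeder cells, was 6.56 and 6.80, 6.51 and 6.51, and 6.54 to 6.74 in the same order of groups, and none of the 9 tested passed. Of the mesoderm and endoderm markers, 7 tested in each list, only Kdr fell (-0.44) and none rose. Over all genes 7.9% were called, so the counts of these short marker lists lie near that share and do not show that the markers were unchanged. The mean of the mesoderm list was 6.37 to 6.54 on the knockdown arrays against 6.59 to 6.60 with luciferase. The mean of the endoderm list was 6.43 and 6.45 with hairpin 1 and 6.62 and 6.66 with hairpin 2, against 6.60 to 6.71 with luciferase, and the differences of its 7 genes over both hairpins ran from -0.24 to -0.0092. The part of both shifts in the members' values was not tested.

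With Mettl3 lowered, Sox1 RNA was lower, Pax6 RNA was higher on its bright probe sets, Neurog1 RNA was higher with hairpin 2, and the other 5 factors showed no difference that passed the test. Over both hairpins, 1 of 8 members was called, and it fell. In all, 7.9% of genes were called in either direction, 5.53% higher and 2.37% lower, so 1 of 8 is a share near that background (with each array centred on its median gene value, 696 genes were called higher and 703 lower, against 904 and 388 as deposited). The median difference of the 8 members was -0.06, and that of all genes was 0.00.

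**Figure D1:**
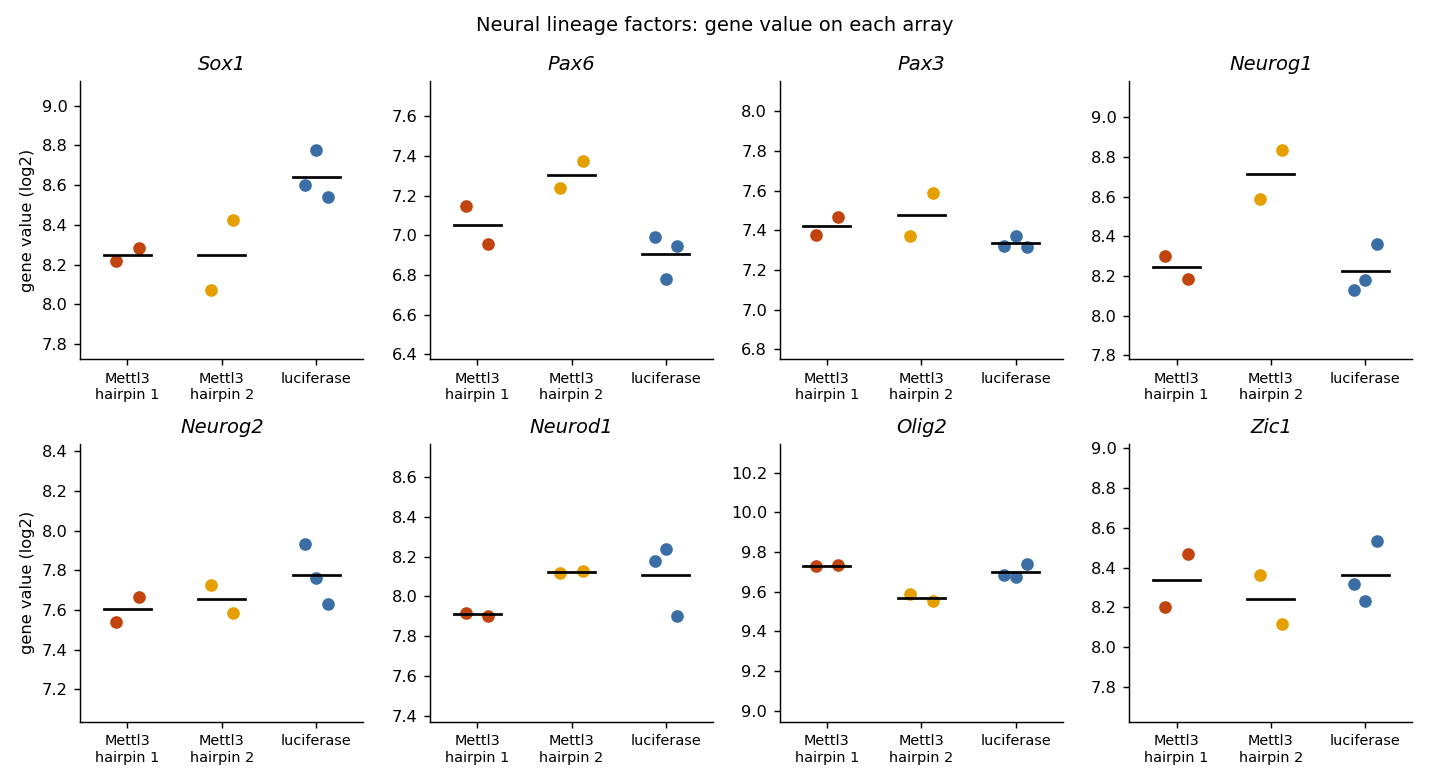
Gene value (log2) of each of the 8 factors on each array, in the groups Mettl3 hairpin 1 (2 arrays), Mettl3 hairpin 2 (2 arrays) and luciferase (3 arrays); each panel spans the same height on the log2 scale and bars are group means. All 4 knockdown arrays of Sox1 lie below its luciferase arrays, and Neurog1 is high on both hairpin 2 arrays.

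Sox1, the neuroectoderm factor, was at 8.22 and 8.28 with hairpin 1 and at 8.07 and 8.43 with hairpin 2, against 8.60, 8.78 and 8.54 with luciferase. All 4 knockdown arrays lay below all 3 luciferase arrays, as they did for 8.4% of all genes. The difference was -0.39 ± 0.104 (SE, 95% interval -0.62 to -0.16), a 1.31-fold fall, and it passed narrowly (limma adjusted p = 0.0488). The hairpins gave nearly equal values, -0.39 with hairpin 1 (adjusted p = 0.0999) and -0.39 with hairpin 2 (adjusted p = 0.123), and neither passed alone. The hairpins differed by 0.00 (hairpin 1 minus hairpin 2, 95% interval -0.30 to 0.31). In RNA of whole cultures, fewer cells that express a gene and less RNA per cell cannot be told apart.

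The fall of Sox1 showed on most of its probe sets. All 17 kept probe sets were lower with knockdown, by 0.09 to 0.91 on the log2 scale with a median of -0.43, and in 11 of the 17 the 4 knockdown arrays lay below all luciferase arrays, against 5.98% of all kept probe sets. Probe sets of a gene share its RNA and are not replicates. Probe set 4344456 read 7.56 and 7.57 with hairpin 1 and 7.52 and 7.43 with hairpin 2, against 8.34, 8.40 and 8.30 with luciferase. It was the 1 Sox1 probe set that passed among all 311384 (difference -0.83, limma adjusted p = 0.041), where 0.259% passed in either direction. The 3 kept probe sets with the smallest differences (-0.09, -0.13 and -0.17) had overlapping groups, and the single dim probe set of Sox1 was at 0.03.

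On its brighter probe sets alone Sox1 fell with each hairpin. This stricter filter, an alternative to the one above, kept probe sets with a mean above 7.57, the upper quartile of all probe sets, which left 14 of Sox1. Of these, probe sets 4344456 and 5204750 passed only through their luciferase means and so had to be lower with knockdown. The Sox1 value over all 14 was then 8.46 and 8.47 with hairpin 1 and 8.35 and 8.53 with hairpin 2, against 9.02, 8.83 and 9.14 with luciferase. The difference was -0.54 ± 0.087 (SE, adjusted p = 0.00146) for both hairpins, -0.53 (adjusted p = 0.00628) for hairpin 1 and -0.55 (adjusted p = 0.00639) for hairpin 2. Of 12271 genes tested under this filter, 15% were called over both hairpins, 4.63% lower, and 12.2% and 8.74% were called with hairpin 1 and with hairpin 2. Over the 12 probe sets whose knockdown and luciferase means both exceeded 7.57, the difference was -0.51 ± 0.095 (SE, adjusted p = 0.00393, where 4.62% of 12000 genes were called lower), and it was -0.48 (adjusted p = 0.0182) with hairpin 1 and -0.55 (adjusted p = 0.0127) with hairpin 2, where 12.1% and 8.45% were called. With the wider filter, the call of Sox1 did not hold in 6 of the 7 fits that each omitted 1 array (differences of -0.44 to -0.30). Without hairpin 2 replicate 2 the difference was -0.48 and passed. Over all 14 probe sets of the stricter filter, the 2 that had to be lower included, the call held without each of the 7 arrays (-0.63 to -0.47). The value over the 12 probe sets was not refitted without single arrays. With dim probe sets included, the call was also lost (-0.46, limma adjusted p = 0.061, where 2.42% of 19993 genes were called). With hairpin 2 alone, the call under the stricter filter was lost without hairpin 2 replicate 1 (-0.47, adjusted p = 0.0906).

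A long noncoding RNA gene, Sox1ot, spans the whole of Sox1 in the RefSeq table, and 12 other probe sets of the array are named for it. Over all 12 its medians were 7.11 to 7.39 with knockdown and 7.42 to 7.55 with luciferase. The values that follow are those of the 10 kept ones. Sox1ot was at 7.35 and 7.27 with hairpin 1 and 7.50 and 7.31 with hairpin 2, against 7.61, 7.71 and 7.76 with luciferase (difference -0.34 ± 0.083, SE, limma adjusted p = 0.0376). It was thus lower in the same samples as Sox1, at -0.38 with hairpin 1 (adjusted p = 0.0526) and -0.29 with hairpin 2 (adjusted p = 0.15). Neither hairpin passed alone. How far a Sox1 probe set also reads Sox1ot RNA was not tested.

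**Figure D2:**
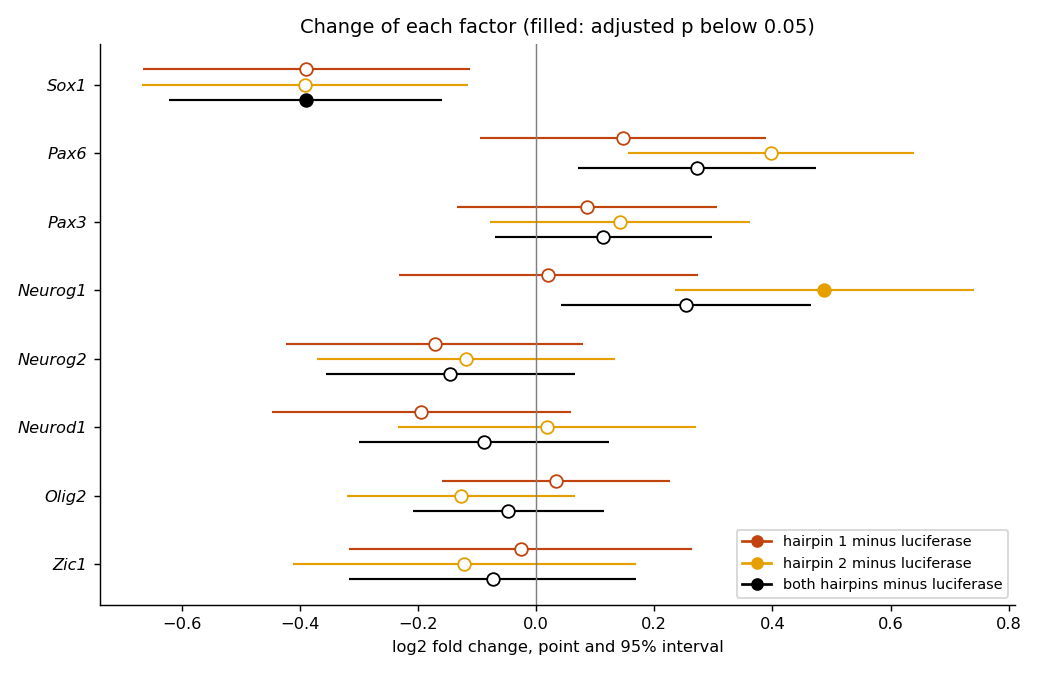
Log2 fold change of each factor with its 95% interval, for Mettl3 hairpin 1, Mettl3 hairpin 2 and their mean, each minus luciferase; filled points passed an adjusted p of 0.05. Sox1 is the 1 member that passed over both hairpins (-0.39), and Neurog1 passed with hairpin 2 (0.49).

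Pax6, the progenitor factor of forebrain and eye, was at 7.15 and 6.96 with hairpin 1 and at 7.24 and 7.37 with hairpin 2, against 6.99, 6.78 and 6.95 with luciferase. Both hairpin 2 arrays lay above all luciferase arrays, and the hairpin 1 arrays overlapped them. The difference of the gene value was 0.27 ± 0.091 (SE, 95% interval 0.07 to 0.47) and did not pass (limma adjusted p = 0.101). It was 0.15 with hairpin 1 (adjusted p = 0.471) and 0.40 with hairpin 2 (adjusted p = 0.08).

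This median hid a split among the probe sets of Pax6. Of 28 kept, 22 were higher with knockdown and 6 lower, and differences ran from -0.17 to 1.04. Of the 28, 3 exceeded the cutoff only through their knockdown means (4952103, 5287695 and 5526951) and so had to be higher with knockdown. Among the other 25, 19 were higher and 6 lower, and in 9 all 4 knockdown arrays lay above all luciferase arrays. Over all 28 this pattern held in 11, beside 12% of all kept probe sets, where none were set aside in this way. At the other end, 12 of all 28 lay within 0.25 of no difference, probe set 5526951 among them (0.247). Probe set 5404870 read 8.68 and 8.34 with hairpin 1 and 8.80 and 8.83 with hairpin 2, against 7.68, 7.65 and 7.55 with luciferase, about 1 log2 unit higher (1.04 ± 0.114, SE), and it passed among all probe sets (limma adjusted p = 0.0434). Probe set 4458130, the brightest of Pax6, read 9.65, 9.42, 9.40 and 9.87 with knockdown and 9.63, 9.69 and 9.95 with luciferase, a difference of -0.17 (adjusted p = 0.669).

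Over its bright probe sets Pax6 rose with each hairpin. Of the 9 under the stricter filter, probe sets 4361281 and 5445052 passed only through their knockdown means and so had to be higher with knockdown. The value over all 9 was 8.61 and 8.34 with hairpin 1 and 8.68 and 8.80 with hairpin 2, against 7.71, 7.82 and 7.93 with luciferase, so that the groups did not overlap. The difference was 0.79 ± 0.088 (SE, 95% interval 0.60 to 0.98), a 1.73-fold rise (limma adjusted p = 0.000145), where 10.3% of genes were called higher. It was 0.66 with hairpin 1 (adjusted p = 0.00191) and 0.92 with hairpin 2 (adjusted p = 0.000305). Over the 7 probe sets whose knockdown and luciferase means both exceeded 7.57, Pax6 was at 8.68 and 8.34 with hairpin 1 and 8.80 and 8.81 with hairpin 2, against 7.74, 7.90 and 8.12 with luciferase. The groups again did not overlap, and the difference was 0.74 ± 0.104 (SE, 95% interval 0.51 to 0.96, limma adjusted p = 0.000704, where 10.1% of genes were called higher). It was 0.59 with hairpin 1 (adjusted p = 0.0096) and 0.88 with hairpin 2 (adjusted p = 0.00144). Of these 7 probe sets, 5 were higher by 0.4 or more, and the other two were probe set 4458130 and one at 0.08. The 19 kept probe sets between both filters had a median difference of 0.25, and the 18 dim ones, whose mean lay at or below 6.02, had 0.22. Among the 19 are the 3 that exceeded 6.02 only through their knockdown means. The rise over all 9, the 2 that had to be higher included, passed in each of 14 alternatives (0.55 to 0.85). These alternatives included leaving out single arrays. The value over the 7 probe sets was not refitted under them.

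**Figure D3:**
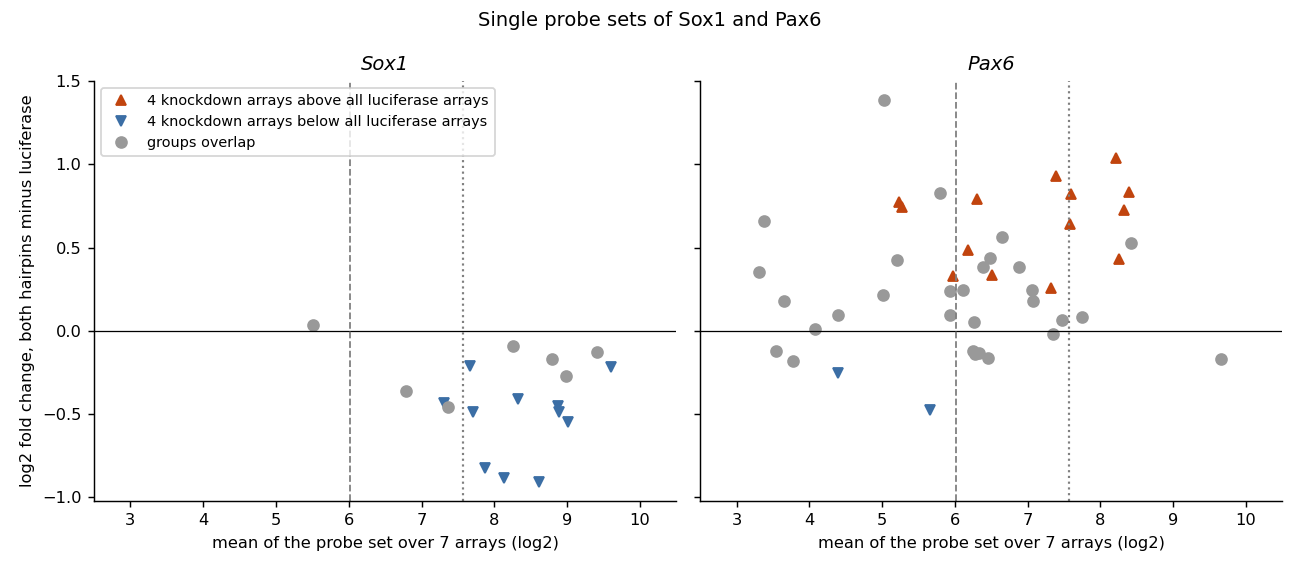
Difference of each probe set of Sox1 (18) and Pax6 (46), both Mettl3 hairpins minus luciferase, against its mean log2 value over 7 arrays; the dashed line is the median of all probe sets (6.02) and the dotted line their upper quartile (7.57). Kept probe sets of Sox1 all lie below 0, while those of Pax6 spread from -0.17 to 1.04 and 5 of the 7 whose knockdown and luciferase means both exceed 7.57 lie at 0.4 or more.

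**Figure D4:**
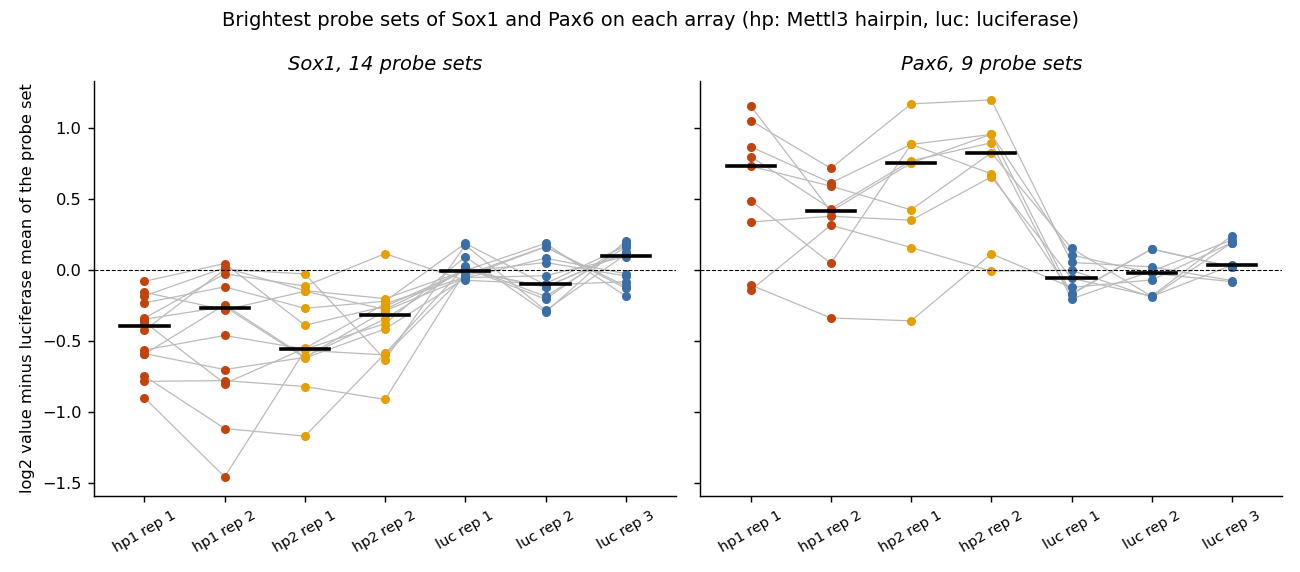
Log2 value of the 14 bright probe sets of Sox1 and the 9 of Pax6 on each of the 7 arrays, less the luciferase mean of that probe set; grey lines join a probe set across arrays and bars are medians. For each gene 2 of the probe sets passed the filter through 1 group only and so had to move in the direction shown. Sox1 medians are below 0 and Pax6 medians above 0 on every knockdown array.

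On the plot of bright probe sets by array, Sox1 and Pax6 went opposite ways in the same samples, but 2 probe sets of each had to do so. Without those 2, Sox1 was at 8.57 and 8.67 with hairpin 1 and 8.51 and 8.59 with hairpin 2, against 9.16, 8.87 and 9.28 with luciferase. Pax6 without its 2 was at 8.68 and 8.34 with hairpin 1 and 8.80 and 8.81 with hairpin 2, against 7.74, 7.90 and 8.12 with luciferase. Genes that overlap Pax6 in the RefSeq table are the antisense noncoding gene Pax6os1 and Elp4, a subunit gene of the Elongator complex. On 4 kept probe sets of 11, Pax6os1 was at 6.91 to 7.09 with knockdown and 7.19 to 7.40 with luciferase (difference -0.30, limma adjusted p = 0.055). Over all 11 its medians were 3.91 to 5.67 with knockdown and 4.64 to 5.02 with luciferase. Elp4 had a difference of -0.03 (adjusted p = 0.861). How far a Pax6 probe set also reads RNA of these genes was not tested.

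Pax3, the dorsal neural tube and crest factor, was at 7.38 and 7.47 with hairpin 1 and 7.37 and 7.59 with hairpin 2, against 7.32, 7.37 and 7.32 with luciferase. The lowest knockdown array exceeded the highest luciferase array by less than 0.01. Knockdown arrays lay above all luciferase arrays in 13.4% of all genes. The difference of 0.11 ± 0.082 (SE) did not pass (limma adjusted p = 0.432). Pax3 rests on 4 kept probe sets, which ran from -0.35 to 0.23. Its brightest probe set read 7.93 and 7.94 with hairpin 1 and 8.02 and 7.83 with hairpin 2, against 8.33, 8.21 and 8.30 with luciferase, so the probe sets of Pax3 did not move one way.

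Neurog1, a proneural bHLH factor, was at 8.30 and 8.19 with hairpin 1 and at 8.59 and 8.83 with hairpin 2, against 8.13, 8.18 and 8.36 with luciferase. Both hairpin 2 arrays stood above every other array. The difference was 0.49 ± 0.113 (SE) with hairpin 2 (limma adjusted p = 0.0461, where 3.79% of genes were called and 2.71% higher) and 0.02 with hairpin 1 (adjusted p = 0.94, where 5.89% were called). Neurog1 was the 1 of 8 members called with hairpin 2, and none was called with hairpin 1 by limma, where Sox1 alone of the 8 had an unadjusted p below 0.05. The difference between the hairpins, -0.47 (hairpin 1 minus hairpin 2, 95% interval -0.74 to -0.19), did not pass over all genes (adjusted p = 0.295), so the hairpins are not shown to differ for Neurog1. The call with hairpin 2 was lost in 12 of 17 alternatives, among them 6 of the 7 that left out an array (0.37 to 0.61; it held without luciferase replicate 3, at 0.56).

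Neurog2, which acts with Neurog1 in cortical and spinal neurogenesis, was at 7.54 and 7.67 with hairpin 1 and at 7.73 and 7.59 with hairpin 2, against 7.93, 7.76 and 7.63 with luciferase. The groups overlapped, and the difference was -0.15 (95% interval -0.36 to 0.07, limma adjusted p = 0.381). Neurod1, which acts in differentiating neurons and endocrine pancreas, was at 7.92 and 7.90 with hairpin 1 and at 8.12 and 8.13 with hairpin 2, against 8.18, 8.24 and 7.90 with luciferase, and its difference was -0.09 (95% interval -0.30 to 0.12, adjusted p = 0.609).

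Olig2, a bHLH factor of motor neuron and oligodendrocyte progenitors, had the smallest difference of the 8. It was at 9.73 and 9.73 with hairpin 1 and at 9.59 and 9.55 with hairpin 2, against 9.68, 9.67 and 9.74 with luciferase. The hairpin 2 arrays were the lowest and the hairpin 1 arrays lay among the luciferase arrays. The difference over both hairpins was -0.05 (95% interval -0.21 to 0.11, limma adjusted p = 0.733). Zic1, a zinc finger factor of the dorsal neural tube and cerebellum, was at 8.20 and 8.47 with hairpin 1 and at 8.36 and 8.12 with hairpin 2, against 8.32, 8.23 and 8.53 with luciferase. The groups overlapped fully and the difference was -0.07 (95% interval -0.32 to 0.17, adjusted p = 0.723).

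At the level of single probe sets, 2 of the members' 110 passed over both hairpins, 1 of Pax6 upwards and 1 of Sox1 downwards. The share over all 311384 was 0.259%, and probe sets of a gene are not independent of each other. Of the 72 kept probe sets, 34 were higher and 38 lower with knockdown. Those with differences of 0.5 or more were 9 of Pax6 (1 of them, 4952103, kept only through its knockdown mean), and those at -0.5 or less were 4 of Sox1; no other member had any.

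Other transcription factors of the neural lineage were read from lists written with earlier results of these data known. Of 27 tested neural progenitor factors, 1 rose and 3 fell over both hairpins, with a median of -0.07. Pax8, a paired factor of the midbrain-hindbrain boundary and thyroid, fell the most (-0.67 ± 0.081, SE, limma adjusted p = 0.00156), at 7.96, 7.76, 7.65 and 7.57 with knockdown against 8.41, 8.43 and 8.38 with luciferase. Gbx2, which acts at the same boundary and in the naive stem cell state, fell by 0.51 and the homeobox gene Meis2 by 0.45; Meis2 was at -0.39 with hairpin 1 (adjusted p = 0.0545) and -0.50 with hairpin 2 (adjusted p = 0.0298). Pou3f1, a POU factor of the epiblast and early neural plate, rose by 0.40 over both hairpins; it was at 0.57 with hairpin 1 (adjusted p = 0.0191) and 0.24 with hairpin 2 (adjusted p = 0.298). With hairpin 2 alone none of the 27 rose and 3 fell, where 3.79% of all genes were called. The other members of the SoxB1 group did not pass: Sox2 was at 0.02 (adjusted p = 0.947) and Sox3 at -0.07 (adjusted p = 0.616), both singled out after their values were seen because they are the closest relatives of Sox1.

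Of 22 tested proneural and neuronal factors, Ebf1 alone passed and fell by 0.38 (median of the list -0.08); it was at -0.21 with hairpin 1 (adjusted p = 0.222) and -0.55 with hairpin 2 (adjusted p = 0.0125). Among 15 partners and inhibitors of bHLH factors 2 rose and none fell (median 0.04): Hes6, which favours neuronal differentiation (0.64), and the Notch target Hey1 (0.40). Hes6 was at 0.82 with hairpin 1 and 0.46 with hairpin 2 (adjusted p = 0.0585). Among 11 factors of the neural crest and dorsal neural tube, Ets1 rose by 0.39 and the pigment cell factor Mitf fell by 0.47 over both hairpins (median -0.01). With hairpin 2 alone none of the 11 passed: Ets1 was at 0.56 with hairpin 1 (adjusted p = 0.0196) and 0.23 with hairpin 2 (adjusted p = 0.302), and Mitf at -0.55 (adjusted p = 0.0121) and -0.38 (adjusted p = 0.0679). The shares over both hairpins, 4 of 27, 1 of 22, 2 of 15 and 2 of 11, stand beside 7.9% over all genes. With hairpin 2 alone 3.79% of all genes were called.

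**Figure D5:**
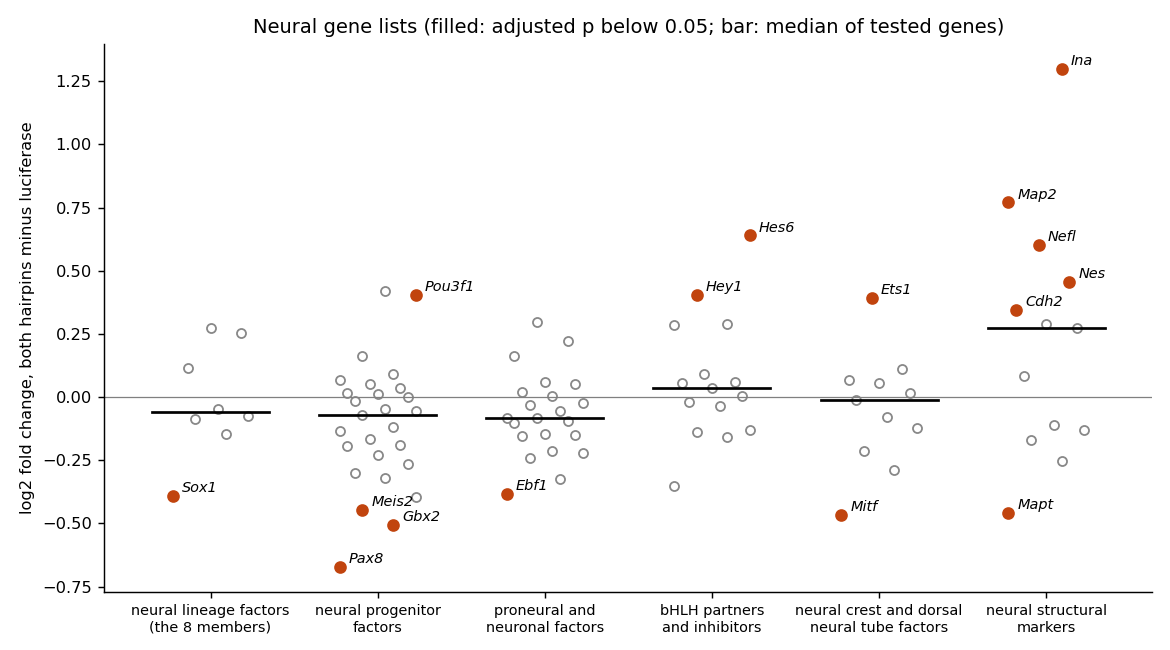
Log2 fold change (both Mettl3 hairpins minus luciferase) of every tested gene of the neural lists; filled and named points passed an adjusted p of 0.05 and bars are list medians. Transcription factor lists have medians between -0.08 and 0.04, and the structural list has 0.27.

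Structural genes of neural cells were read in the same way. Of 13 tested, 5 rose and 1 fell over both hairpins, with a median of 0.27, where 5.53% of all genes were called higher, 2.37% lower and 7.9% in either direction. With hairpin 1 alone 5 rose and 1 fell, where 5.89% of all genes were called. With hairpin 2 alone 3 rose and none fell, where 3.79% were called and 2.71% higher. Ina, a neuronal intermediate filament gene, was at 11.63 and 11.61 with hairpin 1 and 11.52 and 11.59 with hairpin 2, against 10.31, 10.25 and 10.31 with luciferase (1.30 ± 0.073, SE, limma adjusted p = 6.93e-05). The microtubule gene Map2 rose by 0.77 and the neurofilament gene Nefl by 0.60, and both passed with each hairpin. Over both hairpins the tau gene Mapt fell by 0.46, and Nes (0.46) and Cdh2 (0.34) complete the count. With hairpin 2 alone these last genes did not pass: Mapt was at -0.31 (adjusted p = 0.122), Nes at 0.32 (adjusted p = 0.155) and Cdh2 at 0.17 (adjusted p = 0.41). The rises of Ina, Map2 and Nefl and the fall of Mapt thus stood beside a lower Sox1 in the same 4 samples. Pax6 was higher on most of its bright probe sets there, but its gene value did not pass. Over both hairpins Pax3, Neurog1, Neurog2, Neurod1, Olig2 and Zic1 were not called.

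The 5 tested genes whose values followed those of Sox1 most closely over the 7 arrays were Rgs22 (Pearson r = 0.985), Snx17 (0.976), Alkbh7 (0.974), Dhrs2 (0.971) and Efcab6 (0.970). Like Sox1, all 5 were highest on luciferase replicate 2, and all but Efcab6 were lowest on hairpin 2 replicate 1. With 16353 genes and 7 arrays, such values describe likeness only, and the arrays share their groups.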

How the data were processed

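Expression was measured with 1 GeneChip Mouse Exon 1.0 ST array per sample, from total RNA made into biotin-labelled DNA. The deposited values are log2 expression values per probe set. Per the submitters' processing notes RMA and R 2.11.1 were used; the package, probe set definition and annotation build are not named there. RMA pulls arrays to a common distribution (array medians 6.03 to 6.07), so a shift of most transcripts one way would not be seen. Detection calls and scan batches were not used here.

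Symbols came from the platform annotation (311384 probe sets with 1 symbol, 6385 with several and 883569 with none), and older ones were updated through RefSeq synonyms for 45560 probe sets. Gene values were medians of at least 3 probe sets with a mean above 6.02, and means of marker lists used dim probe sets as well. With limma 3.58.1 under R 4.3.3, lmFit and eBayes were run on all 7 arrays with a mean for each group, and p-values were adjusted over all genes or probe sets. A simulation with known changes was used to test the analysis. Alternatives were other filters, a mean of probe sets, quantile normalization, centring, a trended spread, a replicate block, single groups and leaving out each array; a crossed block, the alternatives under the stricter filter and filters that both group means had to pass were added after values had been seen. Members and lists were chosen with earlier results of these data known. Named genes are the members, Mettl3, up to 4 called genes of each neural list with the largest change, and the 5 genes most like Sox1 by Pearson correlation; the stem cell, fibroblast, mesoderm and endoderm markers, the overlapping genes, Nes, Cdh2, Sox2, Sox3, Tcf3, Rest and Id2 were named besides.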

Additional observations from a re-analysis of the deposited data

Results flagged for a closer look

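Id2, which encodes an inhibitor of bHLH factors, differed between the hairpins. It was at 10.38 and 10.09 with hairpin 1 and at 11.10 and 11.17 with hairpin 2, against 10.65, 10.70 and 10.59 with luciferase. Hairpin 1 minus hairpin 2 was -0.90 ± 0.118 (SE, limma adjusted p = 0.0438, where 0.104% of genes were called). Against luciferase Id2 was at -0.41 with hairpin 1 (adjusted p = 0.0531) and 0.49 with hairpin 2 (adjusted p = 0.0382). Id2 was singled out after its values were seen, and the cause was not tested.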

How the results depend on the processing

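Over both hairpins, 1292 genes were called, 964 with hairpin 1, 619 with hairpin 2 and 17 between the hairpins. In the same order these counts were 484, 320, 92 and 0 with dim probe sets included; 1836, 1503, 1073 and 34 under the stricter filter; and 2840, 2259, 1626 and 79 with the mean of probe sets. A trended spread called 29 genes between the hairpins, and a fit of those 2 groups alone called 2. Same-numbered samples of the hairpins did not deviate together (correlation -0.177), and those of a hairpin and luciferase ran from -0.262 to 0.083. The 2 arrays of a hairpin deviate as mirror images, so these values cannot settle whether the numbers mark a pairing. With the replicate block the counts were 540, 460, 208 and 3, and with the crossed block 542, 389, 151 and 0. Leaving out 1 array gave 605 to 1098, 271 to 729, 63 to 577, and 0 to 4. With dim probe sets included, both hairpins gave 1677 genes with the mean of probe sets, 1207 with a trended spread, 7 with the replicate block, 0 with the crossed block (limma) and 61 to 201 without 1 array. Of the members' probe sets, 2 were called by limma, where 0.259% of all probe sets with 1 symbol were called. The count was 7 when only kept ones were tested, 11 with a trended spread, 0 with the replicate block and 0 without any 1 array. Shares over all probe sets in these other fits are not given here, so 7 and 11 cannot be weighed against them. In the fit of all arrays, 34 had an unadjusted p below 0.05.

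The fall of Sox1 over both hairpins lost its call with dim probe sets (-0.46), the replicate block (-0.44) and the crossed block (-0.44), and ran from -0.48 to -0.30 without 1 array. Pax6 passed under the stricter filter, at 0.79, or 0.74 with both group means above the upper quartile. It also passed with the mean of probe sets (0.35). That mean includes the 3 kept probe sets that had to be higher with knockdown, and it was not refitted without them. Of 720 differences under an alternative, 52 turned sign, and none of those passed the threshold in either fit. With dim probe sets, Neurog2 was at 0.024 over both hairpins, 0.0092 with hairpin 1 and 0.038 with hairpin 2, Zic1 at 0.065, 0.046 and 0.084, and Pax3 at -0.025 with hairpin 1, while hairpin 1 minus hairpin 2 was -0.030 for Sox1 and -0.038 for Zic1. With hairpin 1, Neurog1 was at -0.039 under the stricter filter, -0.036 after quantile normalization and -0.030 after centring, and Olig2 at -0.032 with the mean of probe sets, -0.0081 after quantile normalization and -0.018 after centring; Pax3 was at -0.0011 with the mean. With hairpin 2, Neurod1 was at -0.037 after quantile normalization, -0.044 after centring and -0.085 with either block. Zic1 was at 0.012 over both hairpins and 0.059 with hairpin 1 under either block. From the values with dim probe sets, over both hairpins, the mean put Zic1 at -0.018 and Pax3 at -0.022, Neurog2 was at -0.022 after quantile normalization, -0.0062 after centring and -0.027 with either block, and Pax3 was at -0.018 after centring.

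Without 1 array, signs turned within -0.036 to 0.090 for Neurog1 with hairpin 1, and for Zic1 within -0.14 to 0.012 over both hairpins, -0.16 to 0.11 with hairpin 1 and -0.25 to 0.0025 with hairpin 2. Neurod1 with hairpin 2 ran from -0.085 to 0.084. Between the hairpins, Neurog2 ran from -0.12 to 0.018, Sox1 from -0.18 to 0.18, Zic1 from -0.040 to 0.23 and Pax3 from -0.16 to 0.050. With dim probe sets, over both hairpins, Pax3 ran from -0.078 to 0.10, Neurog2 from -0.068 to 0.11 and Zic1 from -0.015 to 0.18. The causes were not tested. A fit of only the groups compared does not apply to both hairpins, and Pax3 has too few bright probe sets for the stricter filter.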

Other observations

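Among partners of bHLH factors that did not pass, the E protein gene Tcf3 was at 10.03, 9.90, 9.90 and 9.95 with knockdown and 9.67, 9.59 and 9.71 with luciferase (difference 0.29, limma adjusted p = 0.0526), and Rest, which represses neuronal genes outside neurons, was at 11.50, 11.20, 11.52 and 11.55 against 11.33, 11.16 and 10.96 (0.29, adjusted p = 0.134). Both were singled out after their values were seen.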
